A study of Mus musculus with 8 samples.

Results

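The deletion of Trappc1 was examined here in naive CD4 T cells alone. Its members were the 2 CD4 knockout (KO) libraries and the 2 CD4 wild-type (WT) libraries, chosen by cell type and genotype in the labels, which makes 4 of the 8 libraries of the series. The study sorted naive T cells by surface markers, taking cells low in CD44, from spleens and from the nodes the labels abbreviate as mLNs, and sequenced their RNA. All mice were 4 weeks old per the labels. The KO group carried CD4-cre with a conditional Trappc1 allele (CD4-cre Trappc1 cKO), and the control group is labelled WT, with no statement on whether those mice carried Cre. CD4-cre is switched on in developing T cells, so the gene is lost in the CD4 and the CD8 lineage during thymic development and not acutely in the mature cell. Which exons are removed is not stated in the labels. The labels do not say whether the libraries of a group came from separate mice or from pools, so each p-value below reflects only how much these libraries vary, and that variation may be technical.

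TRAPPC1 belongs to the core shared by the TRAPP complexes. These tether vesicles and switch on small Rab GTPases by loading them with GTP. TRAPP acts on RAB1 in the transport of newly made proteins from the endoplasmic reticulum (ER) to the Golgi and also takes part in autophagy. Naive CD4 T cells are small resting cells that live on signals through the IL-7 receptor and the T cell receptor, and whose surface receptors all pass through this route.

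The targeted gene came first. Trappc1 (chr11:69323986-69325793, plus strand, mm10) stood at 78.7 and 55.03 TPM (a length-corrected level scaled to the same total in each library) in the 2 WT libraries and at 30.5 and 32.8 TPM in the 2 KO libraries. Both KO libraries lay below both WT libraries. Throughout, differences are KO minus WT on the log2(TPM + 1) scale, with the standard error (SE) and the Benjamini-Hochberg adjusted p of limma's moderated test over all genes, and a gene is called when that p is under 0.05. For Trappc1 the difference was -1.03 ± 0.30 (SE) with an adjusted p of 0.069, so it was not called. The gene-level value pools the whole gene, so it does not check the deleted part.

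Markers of the labelled cell type were abundant in all 4 libraries, alongside RNA of B cells. Cd4, the coreceptor for MHC class II, stood at 543 and 764 TPM in WT and 564 and 733 TPM in KO, and the groups overlapped. Cd3e, a chain of the T cell receptor complex, stood at 426 and 554 TPM in WT and 720.5 and 706 TPM in KO. Il7r, the IL-7 receptor alpha chain and the remaining defining marker, was abundant in each library at 3167 and 2973 TPM in WT and 1000 and 1173 TPM in KO. Cd8a, which marks the other lineage, stayed between 1.28 and 4.10 TPM. RNA of B cells was present in all 4 libraries, with Cd79a at 722 and 812 TPM in WT and 609 and 494 TPM in KO. Cd79b, also a B cell gene, stood at 1116 and 1127 and 711 and 711.5 TPM, and Ms4a1 at 212 and 222 and 254 and 264 TPM. In both WT libraries Cd79a and Cd79b were above Cd4 and Cd3e, so the RNA was not from T cells alone. The estimated depth was 3.74 and 3.48 aligned gigabases in WT and 3.03 and 3.22 in KO, and 10090 and 7810 symbols were listed at 0 in WT against 5952 and 6919 in KO. The 10 most abundant genes took 7.0% and 6.63% of the TPM in WT and 10.5% and 9.17% in KO.

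Sex-linked RNAs also moved with the genotype, and the labels give no sex. These genes were chosen after their values were seen. Xist, the RNA of the inactive X chromosome, was at 0 and 0.0115 TPM in WT and 8.30 and 8.27 TPM in KO. The Y-linked Uty stood at 39.2 and 40.6 TPM in WT and 5.03 and 4.01 TPM in KO. Ddx3y, also Y-linked, stood at 419.5 and 297 and 121 and 133 TPM. Xist was called higher (adjusted p = 0.0209), and Uty, Ddx3y, Eif2s3y and Kdm5d were called lower, with differences of -2.90, -1.47, -1.75 and -1.79. After removal of a trend with the genomic span of genes, described further on, Uty and Kdm5d were not called (adjusted p of 0.059 and 0.0973). Xist, Ddx3y and Eif2s3y were still called. In these 4 libraries the genotype and this difference in sex-linked RNA cannot be told apart.

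Across all genes the KO libraries differed from WT in both directions, with more falls than rises. Of the 11700 genes averaging 1 TPM or more, 974 were called, which is 8.32%. Of these, 310 (2.65% of genes tested) rose and 664 (5.68%) fell, and the smallest called difference was 0.73 in size. The libraries of the groups did not overlap for 58.5% of all genes, and 41.6% of all genes had a difference above 0. The median difference over all genes was -0.17, and differences of single genes are to be read against it. Median-of-ratios scaling of the libraries brought that median to 0.02 and changed the split to 464 higher and 415 lower, so that 52.8% of calls were rises in place of 31.8%. The calls need the libraries WT 1, KO 1 and KO 2: limma called 0 genes without any one of them (2462, 1604 and 2062 genes then had an unadjusted p under 0.05), and 587 without WT 2. Limma also called 0 genes with no filter on low values (3481 at unadjusted p under 0.05) and 0 without an intensity trend (2897). A trend of the differences against the genomic span of the gene, described further on, touched many of the falls. After its removal 171 genes (1.46%) were higher and 122 (1.04%) lower, and calls lost with the trend removed are named or counted beside each list.

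**Figure D1:**
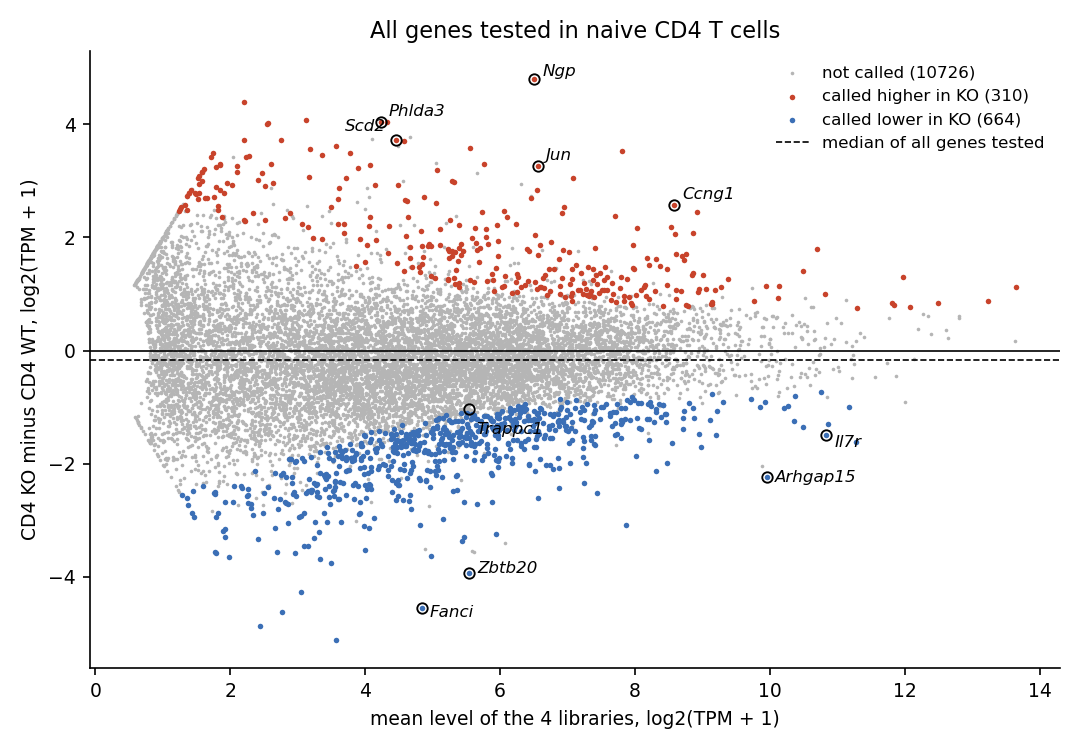
Each point is 1 of the 11700 genes tested, with the mean log2(TPM + 1) of the 4 CD4 libraries on the x axis and the KO minus WT difference on the y axis. The 310 genes called higher and the 664 called lower are coloured, the dashed line is the median of -0.17, and Trappc1 at -1.03 sits among the genes not called.

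Targets of the tumour suppressor p53 were among the genes that rose in the KO libraries. p53 is a transcription factor held low by MDM2 and released by DNA damage and other stress, and it turns on genes that halt the cell cycle, feed back on p53 itself or promote cell death. Of 29 listed genes for arrest and feedback, 28 passed the filter, 11 rose and 0 fell, against 2.65% and 5.68% of all genes, and the list's median difference was 1.13 against -0.17. Once the span trend was removed 8 of the 11 were also called, Cdkn1a, Ddit4 and Aen were not (adjusted p of 0.059, 0.0983 and 0.0738), and Sesn1 was called in addition (0.0331). Trp53 itself, which encodes p53, was at 416 and 460.2 TPM in WT and 534 and 459.9 TPM in KO and was not called (difference 0.18 ± 0.19, adjusted p = 0.58).

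Among the called arrest and feedback genes, the promoter stretches of those with a match to the p53 consensus decamer upstream of the start site are shown so that the site can be seen beside the values. The decamer is the unit that occurs as a pair in a p53 response element, and it was searched on both strands of the window from 250 bases before to 50 bases after each start. Capitals mark the match. Sequences are from RefSeq (GRCm38.p6, the mm10 assembly), 5′ to 3′ on the gene's strand.
Ccng1 (chr11:40755422-40755511, minus strand): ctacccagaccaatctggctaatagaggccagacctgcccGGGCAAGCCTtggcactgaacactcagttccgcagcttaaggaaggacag
Cdkn1a (chr17:29090866-29090977, plus strand): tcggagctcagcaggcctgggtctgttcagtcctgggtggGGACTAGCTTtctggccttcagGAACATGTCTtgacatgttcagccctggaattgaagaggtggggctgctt
Mdm2 (chr10:117710895-117710984, minus strand): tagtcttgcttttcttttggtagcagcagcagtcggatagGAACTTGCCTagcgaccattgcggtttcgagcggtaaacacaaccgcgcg
Aen (chr7:78895897-78895986, plus strand): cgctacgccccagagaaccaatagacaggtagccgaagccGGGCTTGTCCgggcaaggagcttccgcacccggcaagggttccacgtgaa
Bax (chr7:45467050-45467139, minus strand): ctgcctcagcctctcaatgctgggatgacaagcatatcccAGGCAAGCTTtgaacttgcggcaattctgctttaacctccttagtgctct
The last of these, Bax, is from the list of death-promoting targets. In the arrest and feedback list, 12 of the 23 tested members with a promoter in the table held a match (52.2%), and in the death-promoting list 2 of 10 (20%). Of all 32851 promoters 8.36% held one, and of the promoters of tested genes 7.67%. These lists were made of known p53 targets, so the share describes the lists, and a match is a run of letters and no measure of binding.

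Ccng1, cyclin G1, a feedback regulator of p53, stood at 158 and 153 TPM in WT and 999 and 874 TPM in KO. Its KO mean was 6.01 times its WT mean (difference 2.58 ± 0.19, adjusted p = 0.00182). Phlda3, which restrains AKT at the membrane, went from 2.57 and 4.95 TPM in WT to 75.8 and 74.8 TPM in KO, a difference of 4.05 ± 0.39. In both genes the libraries of a group lay close together and far from the other group. Cdkn1a, the cell cycle inhibitor p21, was lower in level, at 10.2 and 3.92 TPM in WT and 45.1 and 30.4 TPM in KO (difference 2.36 ± 0.48, adjusted p = 0.0289). Mdm2, the ubiquitin ligase that degrades p53, stood at 120.3 and 185 TPM in WT and 331 and 311 TPM in KO. Its difference was smaller, at 1.10 ± 0.25.

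The kinase Plk2 stood at 12.9 and 20.6 TPM in WT and 222 and 129.6 TPM in KO. Trp53inp1, a nuclear protein that aids p53-dependent death and arrest, stood at 38.1 and 67.8 and 279 and 281 TPM. Gtse1, which binds microtubules and p53, stood at 13.8 and 11.2 and 91.9 and 71.1 TPM. For these 3 genes the differences were 3.30, 2.44 and 2.61, with adjusted p of 0.00522, 0.00652 and 0.00652. The remaining called members were Psrc1, Sesn2, Ddit4 and Aen, with differences from 1.16 to 3.49. Other p53 targets were not called with the span trend left in. Sesn1 stood at 923 and 1029 TPM in WT and 1007 and 1119 TPM in KO, and Btg2 at 1290 and 1241 and 1034 and 1250 TPM. In both genes the groups overlapped, and Sesn1 was called only once the span trend was removed.

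The death-promoting targets were mixed. Of 14 listed genes 13 passed the filter, 4 rose and 1 fell, against 2.65% and 5.68% of all genes, with a median of 0.39. The rises were Trp53inp1, which is in both lists, Pmaip1, Bax and Fas, and the fall was Dap. With the span trend removed the 4 rises were also called and Dap was not (adjusted p = 0.271). Bax, which opens the outer mitochondrial membrane, stood at 496 and 374 TPM in WT and 1109 and 962 TPM in KO (difference 1.26 ± 0.21, adjusted p = 0.0155). Pmaip1, the BH3-only protein NOXA, stood at 56.95 and 19.5 TPM in WT and 246 and 200 TPM in KO, so that the WT libraries differed between themselves while both KO libraries lay above them. Fas, the death receptor, stood at 51.1 and 54.9 and 119 and 114 TPM, a difference of 1.12 ± 0.24. Bbc3, the BH3-only protein PUMA, stood at 39.8 and 39.97 TPM in WT and 57.3 and 48.2 TPM in KO and was not called (adjusted p = 0.382). Dap, a gene named for cell death but linked to restraint of autophagy, stood at 121 and 103 and 52.7 and 58.6 TPM.

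In the ER stress response a small number of genes were called. Of 30 ER chaperone and unfolded protein response genes, all 30 passed the filter. Of these 3 rose and 0 fell, against 2.65% and 5.68% of all genes, and the median was 0.01. The members that rose were Calr, Hspa5 and Dnajb9. Once the span trend was removed Calr and Dnajb9 were also called and Hspa5 was not (adjusted p = 0.0829). Calr (calreticulin) and Hspa5 (BiP) were the called members whose promoters held a match to the ER stress element, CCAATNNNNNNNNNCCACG on either strand. The stretches holding the match are given here so that they can be seen beside the values of these 2 genes. Capitals mark the match, which in Calr lies on the opposite strand. The source and build are as above.
Hspa5 (chr2:34771985-34772083, plus strand): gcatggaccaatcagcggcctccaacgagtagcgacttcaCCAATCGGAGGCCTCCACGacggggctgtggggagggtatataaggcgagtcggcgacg
Calr (chr8:84847035-84847133, minus strand): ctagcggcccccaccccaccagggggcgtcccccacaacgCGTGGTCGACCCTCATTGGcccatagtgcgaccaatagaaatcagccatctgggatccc
The element was found in 39 of 32851 promoters (0.119%) and in 9 of the 26 tested list members with a promoter in the table (34.6%). Among those 9 were Hsp90b1, Canx and Pdia6, none of which was called.

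Calr stood at 151 and 197 TPM in WT and 859 and 716 TPM in KO, a difference of 2.18 ± 0.22 (adjusted p = 0.00379). Hspa5 stood at 336 and 104 TPM in WT and 881 and 703 TPM in KO, so that WT 2 was the lowest and both KO libraries were above WT (difference 2.07 ± 0.46, adjusted p = 0.0349). Dnajb9, a cochaperone of BiP, stood at 76.01 and 76.7 and 197 and 179 TPM. By comparison Hsp90b1 (GRP94) stood at 547 and 656 TPM in WT and 759.7 and 717 TPM in KO, and its difference of 0.30 ± 0.19 was not called. Xbp1, whose spliced form drives the response, stood at 293 and 241 and 219 and 202 TPM, and gene-level values do not separate its spliced form. Herpud1 stood at 265 and 180.4 and 215 and 213 TPM with overlapping groups.

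In the integrated stress response, where phosphorylated eIF2 alpha lets ATF4 be made, Atf4 and 4 other members were called and genes of amino acid supply were not. Of 23 listed genes 19 passed the filter, 5 rose and 0 fell, against 2.65% and 5.68% of all genes, and the median was -0.24. Once the span trend was removed Ddit3 and Ddit4 were not called (adjusted p of 0.0938 and 0.0983). Atf4, the transcription factor, stood at 191 and 278 TPM in WT and 798 and 686 TPM in KO (difference 1.68 ± 0.23, adjusted p = 0.0101). Ddit3, the factor CHOP, stood at 155 and 95.1 and 362 and 247 TPM, and Ppp1r15a (GADD34), which reverses the phosphorylation of eIF2 alpha, stood at 118 and 105 and 334 and 292 TPM. Both were called, with differences of 1.29 and 1.48. Sesn2, a sestrin shared with the p53 list, stood at 19.7 and 32.8 and 122 and 109.9 TPM. The members that make or load amino acids were not called, among them Phgdh at 254 and 376 TPM in WT and 209 and 232 TPM in KO, Shmt2 at 122 and 164 and 157 and 91.9 TPM, and Aars at 83.4 and 121 and 61.1 and 59.4 TPM. Trib3, a target of ATF4 and CHOP, stood at 69.4 and 90.4 and 57.1 and 52.7 TPM and was not called either.

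**Figure D2:**
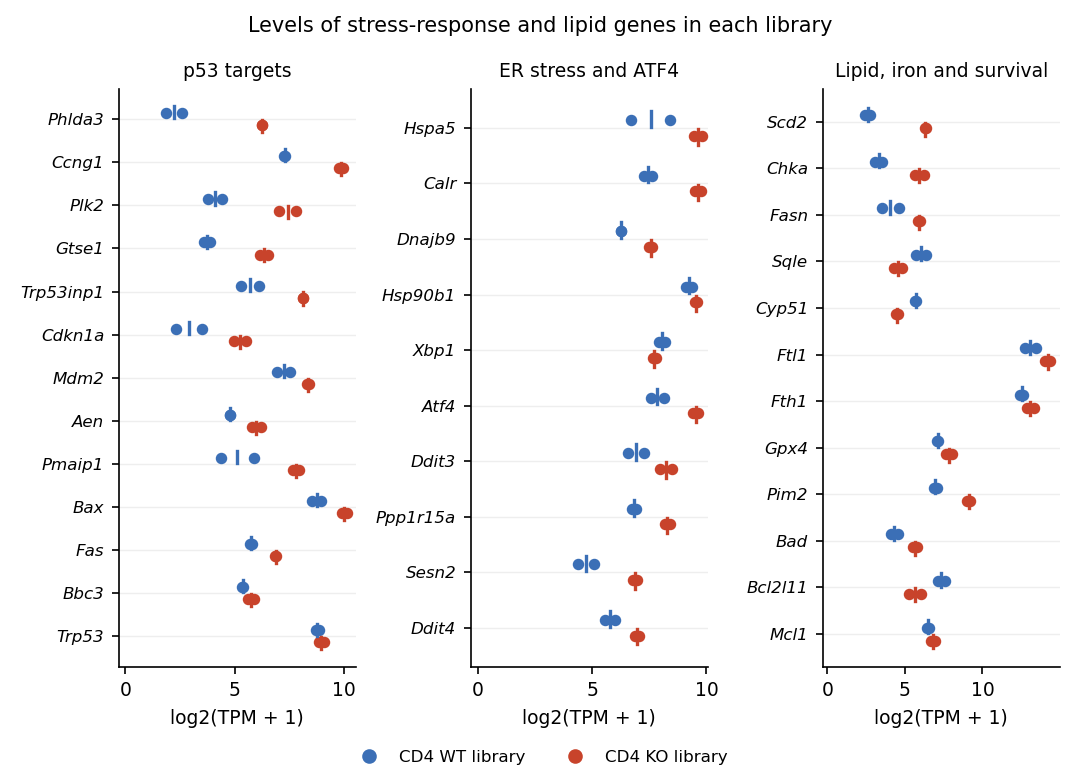
Each dot is 1 library (blue WT, red KO), the x axis is log2(TPM + 1) and the short bars are the means of the 2 libraries, for p53 targets, ER stress and ATF4 genes, and genes of lipid synthesis, iron and survival. The groups are well apart for Phlda3, Ccng1, Calr, Atf4, Scd2 and Pim2 and close together for Trp53, Xbp1 and Mcl1.

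The secretory machinery around TRAPP showed few calls. Of the 8 core TRAPP subunits and the 6 subunits particular to TRAPPII or TRAPPIII, all passed the filter and limma called 0 (1 and 2 had an unadjusted p under 0.05). The medians were -0.33 and -0.40, close to the median of all genes, and with the span trend removed the second turned to 0.18. Trappc3, another core subunit, stood at 134 and 139 TPM in WT and 155 and 156 TPM in KO. Trappc9, a TRAPPII subunit, stood at 22.7 and 40.04 and 6.13 and 12.5 TPM (difference -1.67 ± 0.47, adjusted p = 0.0648), and with the span trend removed its adjusted p was 0.872.

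Among 24 genes of ER exit and of the COPII coat, which buds vesicles from the ER, 23 passed the filter. Of the 23, 2 rose and 0 fell, against 2.65% and 5.68% of all genes. Both rises were also called with the span trend removed. Sar1a, the GTPase that starts the coat, stood at 201 and 178 TPM in WT and 409 and 418 TPM in KO (difference 1.13 ± 0.20, adjusted p = 0.0184). Surf4, a cargo receptor, stood at 77.3 and 95.3 and 208 and 207 TPM (difference 1.26 ± 0.23). The coat subunits Sec13 and Sec23a were not called, Sec13 standing at 360.5 and 361 TPM in WT and 374 and 306 TPM in KO. In the COPI coat of the return route 15 of 16 genes passed the filter and limma called 0 of them (2 at an unadjusted p under 0.05), with a median of -0.06 that turned positive (0.14) under scaling. Among 35 Golgi tethers and SNAREs 5 fell and 0 rose, against 5.68% and 2.65% of all genes. The list median was -0.09 (0.11 under scaling), against -0.17 for all genes. The falls were Cog5 and Vps53, subunits of the COG and GARP tethers, the SNAREs Vti1a and Stx18, and Nsf, the ATPase that takes SNAREs apart. Vti1a stood at 24.8 and 16.2 TPM in WT and 2.85 and 2.70 TPM in KO, and Nsf at 190.2 and 176 and 81.8 and 94.3 TPM. Of the 35, 0 were called with the span trend removed, and the difference of Nsf was 0.01. The substrates of TRAPP were not called: Rab1 stood at 189 and 193 TPM in WT and 245 and 223 TPM in KO, and Rab1b at 582 and 547 and 455 and 493 TPM.

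Among regulators of survival, the genes called did not move in one direction. In the BCL2 family and survival kinases 19 of 21 passed the filter and the median was 0.33. Of the 19, 2 rose (Pim2, Bad) and 1 fell (Bcl2l11), against 2.65% and 5.68% of all genes. Once the span trend was removed Pim2 was also called, Bad was not (adjusted p = 0.0748), and Sgk1 was called higher in addition (0.044). Pim2, a serine kinase that supports T cell survival, stood at 116 and 131 TPM in WT and 520.3 and 590.1 TPM in KO (difference 2.16 ± 0.20, adjusted p = 0.00353). Bcl2l11, the BH3-only protein BIM that sets the lifespan of naive T cells, stood at 139 and 190.4 and 36.7 and 66.1 TPM (difference -1.70 ± 0.33), and with the span trend removed its adjusted p was 0.0572. The groups did not overlap in either gene. The protective Bcl2 stood at 80.2 and 79.1 TPM in WT and 41.7 and 79.1 TPM in KO, and Mcl1 at 93.2 and 83.6 and 102 and 120 TPM, and neither was called. Of 24 caspases and inhibitors of apoptosis 22 passed the filter. Of the 22, 2 rose (Birc5, Birc2) and 2 fell (Casp8, Birc6), against 2.65% and 5.68% of all genes. After removal of the span trend only Birc2 was called, and Birc5, Casp8 and Birc6 had adjusted p of 0.0561, 0.105 and 0.583. Casp8, the caspase of death receptors, stood at 452 and 444 TPM in WT and 167 and 224 TPM in KO. Birc5, survivin, which is also a mitotic gene, stood at 8.82 and 1.39 and 55.5 and 35.8 TPM.

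In lipid synthesis 3 genes rose that make or desaturate fatty acids or activate choline. Of 25 listed genes 19 passed the filter, 3 rose and 0 fell, against 2.65% and 5.68% of all genes. The median was -0.01, and each of the 3 was also called with the span trend removed. Scd2, a desaturase that puts a double bond into saturated fatty acids, stood at 4.42 and 5.75 TPM in WT and 76.2 and 81.6 TPM in KO, 15.5 times the WT mean (difference 3.72 ± 0.34, adjusted p = 0.00318). Its close relative Scd1 stood at 46.6 and 51.2 and 55.4 and 50.5 TPM with overlapping groups. Chka, the kinase that starts phosphatidylcholine synthesis, stood at 7.42 and 10.5 TPM in WT and 73.5 and 49.5 TPM in KO (difference 2.64 ± 0.37). Fasn, fatty acid synthase, stood at 10.4 and 23.5 and 56.8 and 61.1 TPM (difference 1.84 ± 0.41, adjusted p = 0.0337). Acly, which supplies acetyl-CoA, and Srebf1, the regulator of the pathway, were not called, Acly standing at 299.8 and 376 TPM in WT and 274 and 325 TPM in KO and Srebf1 at 11.7 and 22.4 and 16.03 and 21.3 TPM.

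In cholesterol synthesis few genes were called. Of 28 genes 27 passed the filter, 0 rose and 2 fell, near the shares of all genes (2.65% and 5.68%). The median was -0.37, against -0.17 for all genes. Sqle, squalene epoxidase, stood at 82.3 and 51.7 TPM in WT and 27.2 and 18.5 TPM in KO (difference -1.50 ± 0.35), and Cyp51, the lanosterol demethylase, at 51.5 and 49.8 and 22.4 and 20 TPM (difference -1.22 ± 0.29). Of the 27, 0 were called with the span trend removed.

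Genes of glutathione, lipid peroxidation and iron, the machinery of ferroptosis, had 28 of 35 members past the filter and a median of 0.04. There was 1 rise and 1 fall, near the shares of all genes (2.65% and 5.68%). Ftl1, the ferritin light chain that stores iron, stood at 11030 and 6855 TPM in WT and 21530 and 16550 TPM in KO (difference 1.12 ± 0.26, adjusted p = 0.0366), and ferritin light chain has near-identical copies in the genome that the authors' counting could have mixed. Aco1, which reads iron levels and represses ferritin translation when iron is low, stood at 60.5 and 43.01 and 14.99 and 22.1 TPM. In this list 0 were called with the span trend removed. Gpx4, the peroxidase that protects membrane lipids, stood at 134 and 139 TPM in WT and 257 and 202 TPM in KO. Its difference of 0.73 ± 0.22 was not called (adjusted p = 0.0793), nor was that of Acsl4 at 51.2 and 53.7 and 35.8 and 23.3 TPM. Slc7a11, the cystine transporter, was under the filter at 0.0883 and 0.0983 and 1.72 and 1.12 TPM.

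Energy metabolism had 1 call in each list, a rise, against rises in 2.65% of all genes. Of 21 glycolysis and lactate genes 20 passed the filter and Slc16a1, the lactate transporter MCT1, rose from 11.2 and 22.9 TPM in WT to 85.4 and 82.5 TPM in KO (difference 2.31 ± 0.37), and was also called with the span trend removed. Ldha stood at 767 and 1076 and 966 and 954 TPM and was not called. Of 50 nuclear-encoded respiratory chain genes Atp5b, a subunit of ATP synthase, rose, from 1045 and 1564 TPM in WT to 2583 and 2530 TPM in KO. Its adjusted p was 0.0656 with the span trend removed. The cytosolic ribosomal proteins leaned to higher values as a group. Of 61 listed 60 passed the filter, and 58 of them had a difference above 0 against 41.6% of all genes. The median was 0.57, yet only Rpl34 and Rpl18 were called, both higher, against 2.65% of all genes. Rpl34 stood at 178 and 168 TPM in WT and 370.5 and 304 TPM in KO. These genes are short, with a median span of 3.1 kb, many have processed copies in the genome, and with the span trend removed the median was 0.35 and 0 were called.

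**Figure D3:**
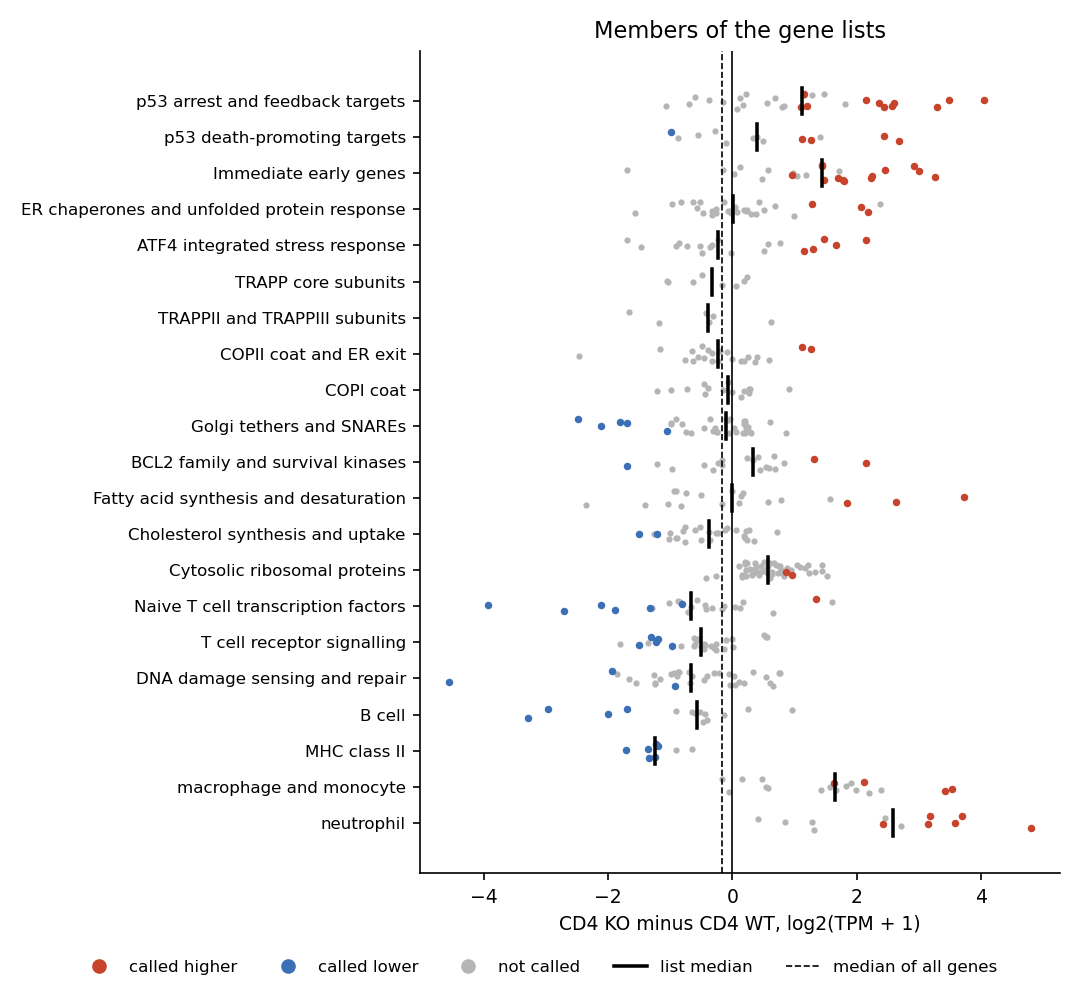
Each dot is a list member that passed the filter, placed by its KO minus WT difference in log2(TPM + 1), red where called higher, blue where called lower and grey where not called; black bars are list medians and the dashed line is the median of all genes, -0.17. Medians range from -1.24 for MHC class II genes to 2.59 for neutrophil genes, and the p53 arrest list (1.13) and the immediate early list (1.44) lie to the right of the dashed line.

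The listed transcription factors of naive T cells, not all of which hold the naive state, leaned lower, in a list made up largely of long genes. Of 26 listed factors 25 passed the filter, 6 fell and 1 rose, against 5.68% and 2.65% of all genes. The median was -0.67 (-0.47 under scaling). Zbtb20, a zinc finger repressor, had the strongest call, at 184 and 178 TPM in WT and 10.4 and 11.3 TPM in KO (difference -3.94 ± 0.27, adjusted p = 0.00172). Tox, a chromatin factor of thymocyte development, stood at 136 and 121 and 17.3 and 20.4 TPM (difference -2.71 ± 0.27). Bach2, which restrains effector genes, stood at 41.8 and 40.3 TPM in WT and 5.95 and 12.7 TPM in KO. In all 3 the KO libraries were far below both WT libraries. Foxp1, which keeps naive cells quiescent, stood at 312 and 331 and 120.5 and 134 TPM, and Lef1 at 1671 and 1835 and 925 and 1082 TPM. Ikzf1 (Ikaros) was the remaining fall, with the KO libraries apart from each other at 101 and 34.4 TPM against 213 and 231 TPM in WT. The rise was Id2, an inhibitor of E proteins, at 124 and 93.2 TPM in WT and 302 and 248 TPM in KO (difference 1.34 ± 0.24).

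The list's median span was 81.8 kb against 18.8 kb for all genes. After removal of the span trend its median was 0.02 and only Zbtb20 was called; the difference of Foxp1 then changed sign to 0.52, with an adjusted p of 0.189, and those of Tox and Id2 had adjusted p of 0.0656 and 0.056. The factors Tcf7 and Klf2 were not called, Tcf7 (TCF1) standing at 1897 and 1501 TPM in WT and 1628 and 1860 TPM in KO and Klf2, which sets homing receptors, at 50.03 and 64.3 and 65.4 and 58.9 TPM. Foxo1, which drives Il7r, stood at 18.4 and 12.98 and 8.78 and 9.24 TPM and was not called.

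Survival receptors and their signalling gave 1 rise and 3 falls among 23 genes, against 2.65% and 5.68% of all genes, with a median of -0.01. Il7r fell, by 1.5 on the log2 scale (SE 0.18, adjusted p = 0.00652), and with the span trend removed its adjusted p was 0.0109. Jak1, the kinase that signals for this receptor, stood at 1567 and 1794 TPM in WT and 776 and 884 TPM in KO (difference -1.02 ± 0.18), and Tgfbr2, the receptor for the quiescence signal TGF-beta, at 272 and 308 and 122 and 148 TPM. Jak1 and Tgfbr2 were not called with the span trend removed (adjusted p of 0.894 and 0.426). Stat5a, the factor downstream of the receptor, rose from 41.2 and 48.3 TPM to 148 and 165 TPM (difference 1.79 ± 0.24, adjusted p = 0.00969), and was called with the trend removed (adjusted p = 0.00988). Its twin Stat5b stood at 52.5 and 56.3 and 46.2 and 63.1 TPM, with overlapping groups. Il2rg, the shared receptor chain, stood at 1372 and 808 and 1015 and 1002 TPM and was not called. In bulk RNA, fewer cells of a type and less RNA per cell cannot be told apart for any of these genes.

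Of 16 homing receptors 15 passed the filter, and 1 rose and 1 fell, against 2.65% and 5.68% of all genes. After removal of the span trend Gpr183 was also called and Ccr7 was not (adjusted p = 0.0656). Ccr7, the lymph node homing receptor, stood at 1865 and 2000 TPM in WT and 3215 and 3288 TPM in KO (difference 0.75 ± 0.17, adjusted p = 0.0357). Gpr183, an oxysterol receptor that guides lymphocytes within lymphoid organs, stood at 409 and 401 and 209 and 212 TPM (difference -0.94 ± 0.19). Cd44, the marker gated as low, was at 15.4 and 2.39 and 8.90 and 6.97 TPM. S1pr1, the egress receptor, stood at 1188 and 1415 and 896 and 1017 TPM and was not called.

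Genes of T cell receptor signalling leaned lower. Of 32 listed genes 29 passed the filter, 25 had a difference under 0 and 4 a difference above 0, against 41.6% of all genes above 0. Of the 29, 5 fell and 0 rose, against 5.68% and 2.65% of all genes. The median was -0.51 (-0.30 under scaling, and -0.17 with the span trend removed). The list's median span was 34.3 kb against 18.8 kb for all genes. Ptprc, the phosphatase CD45, stood at 819 and 873 TPM in WT and 318 and 410.1 TPM in KO (difference -1.23 ± 0.20). Prkcq, protein kinase C theta, stood at 365 and 339 and 138 and 168 TPM, and Grap2, the adaptor GADS, at 174 and 169 and 59.8 and 77.5 TPM. The further falls were Cd2, an adhesion receptor, at 1915 and 1567 TPM in WT and 852 and 909 TPM in KO, and Themis, at 61.8 and 80.5 and 24.7 and 23.98 TPM. After removal of the span trend 2 were called lower, Grap2 (adjusted p = 0.0461) and Cd2 (0.0425). The kinases Lck and Zap70 were not called, Lck standing at 1195 and 1004 TPM in WT and 731 and 811 TPM in KO and Zap70 at 223 and 262 and 178 and 228 TPM.

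The genes that brake cell growth in resting cells had 17 of 18 members past the filter and a median of 0.04. There were 4 rises and 2 falls, against 2.65% and 5.68% of all genes. Tob1, an antiproliferative protein of unstimulated T cells, stood at 28.2 and 26.8 TPM in WT and 179.5 and 135 TPM in KO (difference 2.46 ± 0.27, adjusted p = 0.00522). Its relative Tob2 stood at 39.3 and 44.2 and 114 and 97.7 TPM, and Cdkn1b, the inhibitor p27, at 97.4 and 98.9 and 191 and 172 TPM. The falls were Rapgef6, an exchange factor for Rap GTPases, at 477 and 550.3 TPM in WT and 155 and 189 TPM in KO, and Dapl1 at 76.4 and 54.3 and 21.8 and 8.70 TPM. When the span trend was removed 3 were called higher and 0 lower, and Cdkn1b was not called (adjusted p = 0.108).

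Immediate early genes, which cells switch on within minutes of a stimulus or of handling, leaned higher in KO. Of 24 listed genes 23 passed the filter, 13 rose and 0 fell, against 2.65% and 5.68% of all genes, and the median was 1.44. With the span trend removed 11 of the 13 were also called, and Egr2 and Zfp36 were not. Jun, a subunit of AP-1, stood at 28.4 and 30.2 TPM in WT and 315 and 269 TPM in KO (difference 3.27 ± 0.24, adjusted p = 0.00172). Fos, its partner, stood at 7.14 and 7.14 and 63.6 and 58.2 TPM, and Junb at 172 and 247 and 1177 and 1096 TPM. The groups were far apart in all 3 genes. Egr1, induced through MAP kinases, stood at 27.8 and 40.7 TPM in WT and 164 and 162 TPM in KO, and Nr4a1, which reports T cell receptor signals, at 12.8 and 12.8 and 127 and 95.04 TPM. Nfkbia, the inhibitor of NF-kappaB that NF-kappaB itself induces, stood at 890.4 and 884 and 3347 and 2862 TPM (difference 1.80 ± 0.18). Dusp1, Nfkbiz, Zfp36, Zfp36l1, Tnfaip3, Egr2 and Ppp1r15a also rose, with differences from 0.96 to 2.24. Atf3 and Btg2 were the 2 members with a difference under 0, neither called, and Cd69, an early surface marker, stood at 726 and 649.5 TPM in WT and 1036 and 1004 TPM in KO (adjusted p = 0.0884).

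Of 40 effector genes of activated T cells 34 passed the filter, 22 had a difference above 0, 5 rose, against 2.65% of all genes, 1 fell and the median was 0.67. Of the 5, Nr4a1, Egr1 and Egr2 are also immediate early genes. When the span trend was removed Egr2 and Gzmb were not called (adjusted p of 0.0572 and 0.0656). Tnfsf4, the costimulatory ligand OX40L, stood at 7.10 and 2.62 TPM in WT and 52.8 and 50.1 TPM in KO (difference 3.27 ± 0.46, adjusted p = 0.0104). Gzmb, granzyme B, was low throughout, at 0 and 0.125 and 11.1 and 4.86 TPM. Prf1, perforin, fell from 27.7 and 39.95 TPM in WT to 9.42 and 9.86 TPM in KO. Il2 and Ifng were under the filter, and Il2ra, Myc and Irf4 were not called, Myc standing at 117 and 106 and 85.6 and 107 TPM.

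**Figure D4:**
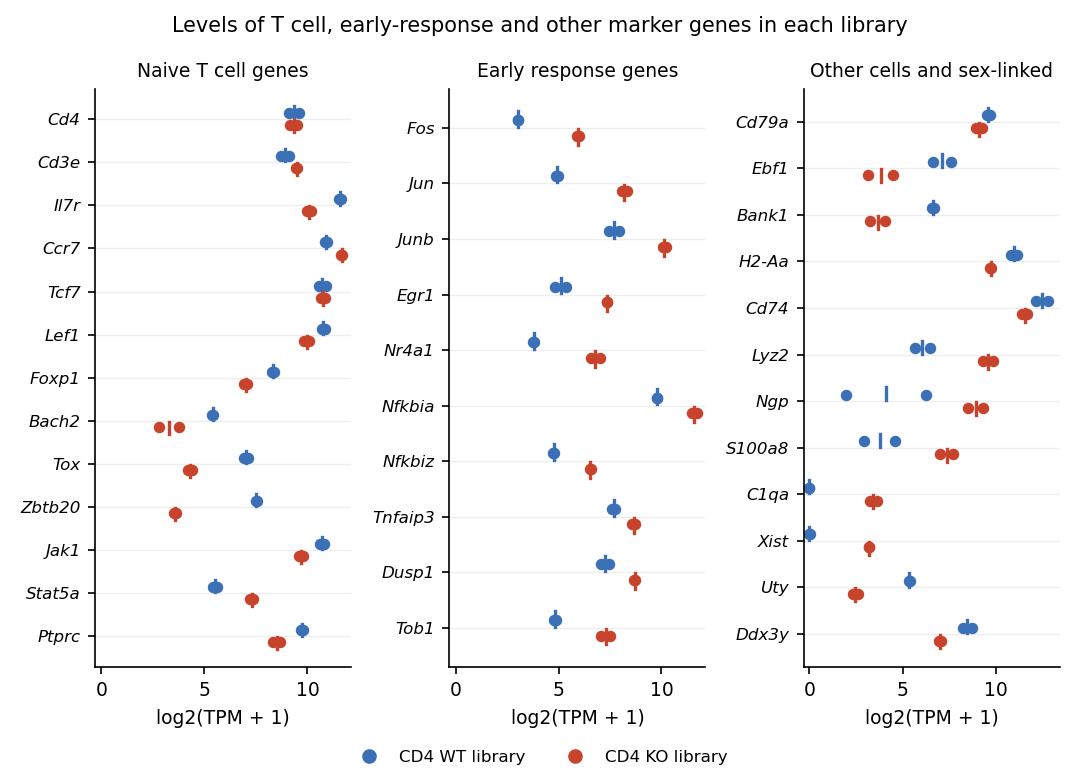
Each dot is 1 library (blue WT, red KO) and short bars are group means, on a log2(TPM + 1) axis, for naive T cell genes, immediate early and related genes, and markers of other cells with sex-linked genes. Cd4 and Tcf7 overlap between the groups, while Il7r, Zbtb20 and Uty are lower and Jun, Lyz2 and Xist higher in both KO libraries.

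Of the remaining processes, the type I interferon response had 26 of 29 members past the filter. There was 1 fall and 0 rises, near the shares of all genes (5.68% and 2.65%). Ifit2 fell from 90.3 and 103 TPM in WT to 32.9 and 44.4 TPM in KO, and was not called with the span trend removed (adjusted p = 0.0629). Cell cycle and mitosis genes had 3 rises (Birc5, Mcm7 and Cdc20) and 0 falls among 38 of 40, against 2.65% and 5.68% of all genes. Mki67, the proliferation marker, was at 1.96 and 1.27 TPM in WT and 2.15 and 2.30 TPM in KO and was not called, and with the span trend removed 0 were called. DNA damage sensing and repair genes leaned lower, with a median of -0.67 over 34 of 35 members, against -0.17 for all genes. There were 3 falls and 0 rises, against 5.68% and 2.65% of all genes. The list's median span was 39.0 kb against 18.8 kb for all genes. Xrcc5, the KU80 subunit of end joining, stood at 82.99 and 58.7 and 21.01 and 14.5 TPM, and Parp1, which senses strand breaks, at 162 and 188 and 92.7 and 91.5 TPM. The median was -0.23 with the span trend removed, and only Fanci, described further on, was called.

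In autophagy and the lysosome, a route that TRAPPIII also serves, 4 genes rose and 2 fell among 38, against 2.65% and 5.68% of all genes. With the span trend removed 2 were called higher and 1 lower. Map1lc3b, the LC3B protein of autophagosome membranes, stood at 1064 and 735 TPM in WT and 2333 and 2341 TPM in KO (difference 1.40 ± 0.22, adjusted p = 0.0129). Lamp1, a lysosomal membrane protein, stood at 84.9 and 104 and 193 and 187 TPM, Ctsd, a lysosomal protease, at 155 and 230.5 and 410.2 and 437 TPM, and Tfe3, a regulator of lysosomal genes, at 37.3 and 58.3 and 108 and 135 TPM. Atg5, which is needed to attach LC3 to membranes, fell from 117 and 93.8 to 25.8 and 32.7 TPM, and with the span trend removed its adjusted p was 0.106. Lamp1 and Tfe3 were not called with the trend removed (adjusted p of 0.0507 and 0.0507). The transcription machinery gave 3 rises (Polr2a, Hexim1 and Supt4h1) and 1 fall among 35, against 2.65% and 5.68% of all genes. With the span trend removed Hexim1 and Supt4h1 were not called (adjusted p of 0.0677 and 0.0763). Polr2a, the largest subunit of RNA polymerase II, stood at 42.5 and 59.4 TPM in WT and 311 and 281 TPM in KO (difference 2.53 ± 0.25, adjusted p = 0.00376). Hexim1, which holds the elongation kinase P-TEFb inactive, stood at 24.8 and 16.9 and 81.3 and 53.6 TPM, and its partner Larp7 fell from 139 and 156 to 62.98 and 72.7 TPM.

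Markers of other cell types moved with the genotype. Of 14 neutrophil genes 12 passed the filter, all 12 had a difference above 0, against 41.6% of all genes, and the median was 2.59. Of the 12, 6 rose, against 2.65% of all genes. With the span trend removed 4 of the 6 were also called, and Ngp and Lcn2 were not. The summed level of the list was 183 and 29.3 TPM in WT and 684 and 1308 TPM in KO. S100a8, a calcium-binding protein of granulocytes, stood at 22.9 and 6.73 TPM in WT and 128 and 205 TPM in KO, and Ngp, a granule protein, at 74.4 and 2.93 and 364 and 632 TPM. Of 22 macrophage and monocyte genes 18 passed the filter and 4 rose, against 2.65% of all genes. They were Lyz2, Cd68, C1qa and, not called with the span trend removed, Lgals3. This list had a median of 1.65 and a summed level of 468 and 401 TPM in WT and 1188 and 1558 TPM in KO. Lyz2, lysozyme, stood at 86.8 and 49 and 631 and 926 TPM, C1qa was listed at 0 in both WT libraries against 8.40 and 11.2 TPM in KO, and Fcgr1 was at 0 in all 4 libraries. Both sums were higher in both KO libraries than in either WT library. Their part in the rises of other genes was not tested.

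Genes of antigen presentation fell, and the B cell markers called were all lower. Of 8 MHC class II genes 6 fell and 0 rose, against 5.68% and 2.65% of all genes, and with the span trend removed 6 were called lower. The median was -1.24 and the summed level was 14380 and 9904 TPM in WT and 5660 and 5262 TPM in KO. H2-Aa stood at 2258 and 1806 TPM in WT and 828 and 864 TPM in KO, and Cd74, the invariant chain, at 7008 and 4510 and 3265 and 2719 TPM (adjusted p = 0.0544). Of 18 B cell markers 14 passed the filter and 4 fell (Bank1, Ebf1, Fcer2a and Blnk), against 5.68% of all genes. Ms4a1, higher in both KO libraries, was not called. Of these 14, 12 had a difference under 0. When the span trend was removed Fcer2a was also called, Cd79b was called lower in addition (adjusted p = 0.0446), and Bank1 and Blnk were not called (0.0913 and 0.114). The summed level of the B cell list was 4191 and 4660 TPM in WT and 3044 and 3012 TPM in KO. Ebf1, a B cell transcription factor encoded by a long gene, stood at 191 and 98.8 TPM in WT and 7.99 and 21.1 TPM in KO, and with the span trend removed its adjusted p was 0.108. Limma called 0 members of the CD8 T cell, plasma cell, dendritic cell, erythroid, platelet and stromal lists, and, with the span trend removed, 1 plasma cell gene (2010001M09Rik, lower). Of these lists 7, 6, 4, 6, 2 and 4 genes passed the filter and 0, 2, 1, 3, 0 and 1 had an unadjusted p under 0.05. The erythroid sum was 63.7 and 161 TPM in WT and 409.9 and 245 TPM in KO, so globin RNA was highest in KO without a call in the list. In the natural killer list 4 genes passed the filter, 3 had a difference above 0 and the median was 1.08. Prf1, the 1 gene called there, fell. In the regulatory T cell list 7 genes passed the filter, 6 had a difference under 0 and the median was -0.40. The 1 call there was Ikzf4, which rose from 21.1 and 34.1 to 81.6 and 115 TPM, while Foxp3 stood at 6.38 and 14.4 and 6.29 and 7.43 TPM. The part of these cells in the falls was not tested.

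The 15 largest rises among genes averaging at least 10 TPM in KO were a mixture of the groups above and of genes outside the lists. Ngp, Ltf, S100a8 and Lyz2 are granulocyte or macrophage genes, Phlda3 is a p53 target and Scd2 the desaturase. Arc, an immediate early gene named for neurons, stood at 0 and 3.48 TPM in WT and 41.2 and 29.2 TPM in KO (difference 4.08 ± 0.70, adjusted p = 0.0174). Lmna, which encodes lamins A and C of the nuclear envelope, stood at 0.127 and 5.18 and 23.5 and 38.6 TPM. Kap, a kidney androgen-regulated gene, was listed at 0 in both WT libraries and at 24.01 and 16.7 TPM in KO. Acat3, a thiolase at 0 and 1.15 and 28.5 and 18.1 TPM, has a close copy in Acat2 and overlaps Tcp1, so its reads may be shared. The others were Ctxn1, Tlcd2, AA467197, 1700001P01Rik and 1700125D06Rik, with differences from 3.62 to 4.04.

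Among the 15 largest falls, Fanci, a Fanconi anaemia repair protein (chr7:79392338-79450264, plus strand), stood at 132 and 143 TPM in WT and 3.42 and 6.87 TPM in KO (difference -4.56 ± 0.37, adjusted p = 0.00248), and it overlaps Polg in the deposited positions, so reads may be shared. Mir568 (chr16:43640655-43640737, plus strand) stood at 68.5 and 69.6 TPM in WT and 3.09 and 0 TPM in KO. As an entry of 83 bases it is one whose TPM rests on few reads. It lies beyond the deposited end of Zbtb20 (chr16:43247284-43619123), on the same strand. Whether the falls of these 2 entries are separate was not tested. Arsb, a lysosomal sulfatase, stood at 32.8 and 37.98 and 2.19 and 1.48 TPM, and Nfyc, a subunit of the CCAAT-binding factor NF-Y, at 34.2 and 47.5 and 1.57 and 2.63 TPM. Lyrm5, a mitochondrial LYR protein, stood at 49.6 and 21.5 TPM in WT and 0.419 and 0.314 TPM in KO, and Galm, which interconverts galactose anomers, at 60.5 and 46.9 and 3.10 and 4.36 TPM. E130102H24Rik, Bdkrb1 and Chchd6 were listed at 0 in both KO libraries. Zbtb20, Clybl, Eya2, 5730494N06Rik, Cdkal1 and Apol9a complete the falls, with differences from -4.27 to -3.57. Clybl, Cdkal1, Chchd6, Zbtb20, Arsb and Eya2 each span over 100 kb. When the span trend was removed Clybl, Cdkal1, Chchd6 and Eya2 were not called (adjusted p of 0.0563, 0.0908, 0.13 and 0.0503).

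The difference between KO and WT followed the genomic span of the gene. Genes under 5 kb had a median difference of 0.25 and those of 200 kb or more a median of -1.54, and the medians fell from each span class to the next. Of the 1039 genes of at least 100 kb 89.8% were lower in KO, 281 were called lower and 2 higher. With no filter on low values, which adds genes near 0, that share was 53.9%. In the longest class 117 of 315 genes (37.1%) were called lower and 0 higher. Between the 2 WT libraries the median difference of that class was -0.17, and between the 2 KO libraries -0.18. The share of all TPM from genes of at least 100 kb was 4.91% and 5.12% in WT and 2.0% and 2.36% in KO, and genes under 5 kb took 21.9% and 21.8% in WT and 29.6% and 26.4% in KO. Both shares were apart between the groups. The falls of Bach2, Jak1 and Ptprc were not called with the trend removed, with adjusted p of 0.221, 0.894 and 0.425. Genes that were called lower with the trend removed include Il7r, Gpr183, Fanci, Zbtb20 and 6 MHC class II genes.

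**Figure D5:**
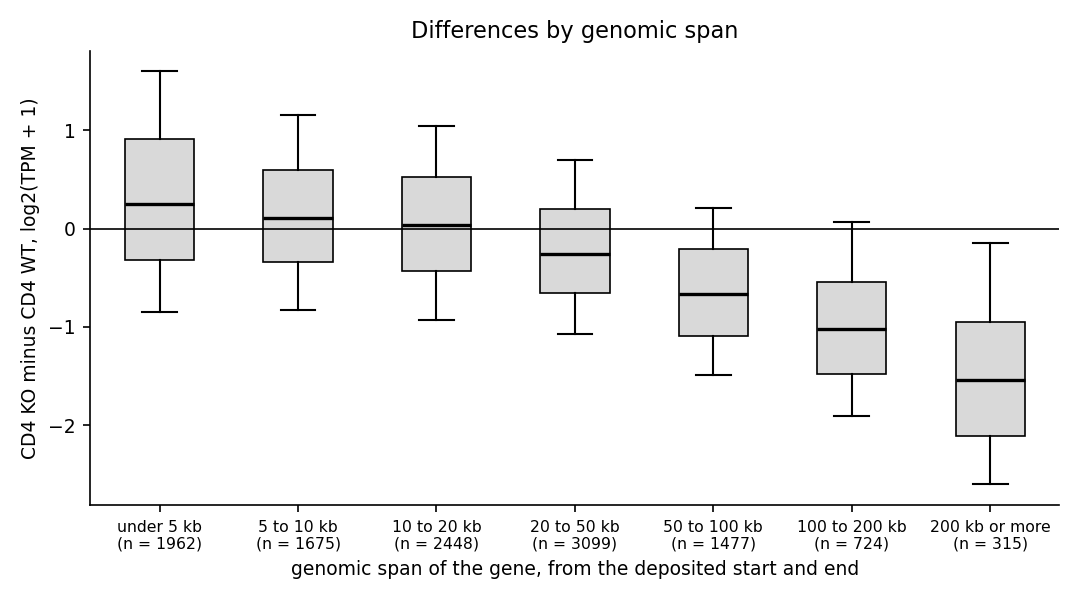
Boxes give the KO minus WT difference in log2(TPM + 1) for genes grouped by genomic span, with the median, the quartiles and whiskers at the 10th and 90th percentiles. The median goes from 0.25 in genes under 5 kb to -1.54 in genes of 200 kb or more.

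Whether the changes are particular to CD4 cells was asked by testing the KO effect in CD4 against that in naive CD8 cells, over all 8 libraries. Limma called 0 of 11786 genes for that difference (819 at unadjusted p under 0.05, smallest adjusted p 0.367). A fit of all 8 libraries calls few genes. For the CD4 effect itself it called 79, against 974 in the 4 CD4 libraries and 925 with CD8 WT 2 left out. The count of 0 therefore does not show that the effects are equal in both lineages. The library CD8 WT 2 stands apart, since its correlation with the other 7 was 0.826 to 0.853, and without it 3 genes were called, Cdv3, Itgb7 and Txnl4a, none of which was called in CD4 cells. Ccng1 went from 132 and 61.4 TPM in CD8 WT to 533 and 566 TPM in CD8 KO, an effect of 2.60 against 2.58 in CD4 cells. Scd2 went from 4.68 and 4.03 TPM to 83.2 and 71.0 TPM, an effect of 3.86 against 3.72. Zbtb20 had 192 and 82.5 TPM in the CD8 WT libraries against 11.9 and 10.4 TPM in the CD8 KO ones. For these 3 genes both lineages moved the same way, and the tests of the difference gave adjusted p of 0.995, 0.953 and 0.805. All 3 are among the 79 genes called above and do not stand for the other genes. The 2 CD8 WT libraries had 31.1 and 994 TPM of Jun, so that the library that stands apart was above both CD8 KO libraries at 96.0 and 109 TPM. Without that library the CD8 effect of Jun was 1.69 against 3.27 in CD4 cells, and the difference was not called (adjusted p = 0.347).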

How the data were processed

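Per the labels, total RNA of sorted naive CD4 and CD8 T cells was extracted with TRIzol, and a SMARTER mRNA kit was used for the libraries. Per the submitters' processing notes, HISAT aligned the reads to mm10; its version and the gene-table program are not stated. Each deposited table gives, per the file headers, TPM, a length-corrected share of transcripts. The deposited FPKM column, a length-corrected fragment density, served as an alternative. The deposited coverage column was used only with FPKM to estimate depth: their ratio, within 1% of 1 value for 85.0% to 86.4% of genes, gives the aligned gigabases. Tables without read counts allow no counting interval, and a 0 may be a failed estimate.

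TPM was summed per symbol (23337 symbols) over the 4 CD4 libraries, and genes averaging 1 TPM or more were fitted as log2(TPM + 1), which understates changes of low genes, with limma 3.58.1 (R 4.3.3; intensity trend, 2 residual and 6.16 prior degrees of freedom, Benjamini-Hochberg adjusted p under 0.05). The effect in CD4 against CD8 cells was an interaction contrast over 8 libraries. Median-of-ratios scaling and removal of a loess trend (span 0.5) of each library against log10 genomic span were alternatives. On simulated data with 11067 genes of this comparison, limma recovered 2 of 67 genes with a log2 change of 1 (2.99%). It recovered 44 of 67 with a change of 2 (65.7%) and 57 of 66 with 3 (86.4%), with 10 false calls. The changed genes all had a WT level above 10 TPM, so recovery at lower levels was not measured. The simulated spread came from limma's own fitted prior, and no span trend was simulated.

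The members and the 42 gene lists (915 genes, 24 matched through older symbols, 17 without a match, 821 past the filter) were chosen with earlier results of these data known. Named genes were Trappc1, Cd4, Cd3e and Il7r, the 15 largest rises and falls among called genes with non-overlapping groups and a higher-group mean of 10 TPM or more, and from each list up to 4 called members of lowest p and the most abundant member. List members named as not called, and the sex-linked genes, were chosen after their values were seen. Promoters are from RefSeq (GRCm38.p6).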

Additional observations from a re-analysis of the deposited data

How the results depend on the processing

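With 2 libraries per group, the number of genes called in CD4 KO against CD4 WT, 974, depended on the settings. It was 0 with no filter on low values, 0 without the intensity trend, 79 with all 8 libraries in the fit, 293 with the span trend removed and 255 with scaling and the span trend removed together, the last chosen after seeing the data. It ranged from 0 to 587 when 1 library was left out, where the lone library of a group is assumed to vary like the other group. The other settings gave 701 to 1440 calls, with limma and the tests as in the report. The share of genes of at least 100 kb that were lower, 89.8%, was 53.9% with no filter and 96.0% with a mean of at least 5 TPM. It lay between 86.2% and 91.0% when 1 library was left out. With the span trend removed it was 50.2%, and 50% with scaling as well. Those last values are no check of the share, since removing the trend with span brings it near 50% by construction. The number of genes whose effect differed between CD4 and CD8 cells, 0, became 3 without CD8 WT replicate 2 and 1 (Igj) with the replicate block.

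Of 186 named genes 138 were called. With the span trend removed 83 of these were called in the same direction, and 2 changed sign, Foxp1 to 0.52 and Nsf to 0.01, or to 0.56 and 0.03 with scaling as well. In both the trend removal itself moved the value, and neither was then called. None of the 138 was called with no filter, without the intensity trend, or without WT 1, KO 1 or KO 2, for which the unadjusted counts over all genes are in the report. Of the 138, 27 were called with all 8 libraries, 75 with scaling and the span trend removed, 98 without WT 2, 116 with a pseudocount of 0.1, 124 with CD8 WT 2 left out of the 8 and 128 with scaling alone. In the further settings at least 135 were called.

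The labels share replicate numbers between groups but do not say that a number marks a mouse, batch or day, and the deviations of same-numbered libraries correlated at 0.04 across genes. With the replicate block limma called 1440 genes. TPM keeps no read depth, so the precision of a gene's level cannot be given.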

Other observations

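The genes in this part were chosen after their values were seen, and limma's adjusted p is over all genes as in the report. Those called higher in KO were picked one by one, stand for no list, and genes of like function that were not called were not counted. Gadd45b, a stress sensor upstream of p38, stood at 42.9 and 48.9 TPM in WT and 388 and 388 TPM in KO (difference 3.06 ± 0.22, adjusted p = 0.00172). Icam1, an adhesion ligand, stood at 72.02 and 115 TPM in WT and 469 and 481 TPM in KO (difference 2.37 ± 0.26). Nfkb2, an NF-kappaB subunit, stood at 43.05 and 114 and 227 and 247 TPM, and Nfkbid, a nuclear regulator of NF-kappaB, at 44.5 and 97.2 and 184 and 224 TPM. In all 4 genes both KO libraries lay above both WT libraries. With the span trend removed Nfkb2 and Nfkbid were not called (adjusted p of 0.0692 and 0.0676). Irf1, an interferon regulatory factor, stood at 182 and 253 TPM in WT and 641 and 767 TPM in KO, and Cd274, the checkpoint ligand PD-L1, at 17.1 and 23.6 and 48.2 and 52.7 TPM, Cd274 having an adjusted p of 0.059 with that trend removed. Klf10, a factor induced by TGF-beta, stood at 34.4 and 33.3 TPM in WT and 247 and 249.7 TPM in KO (difference 2.84 ± 0.23). Brd2, a bromodomain protein, stood at 131 and 391 and 942 and 969 TPM.

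Mir17hg, the host transcript of the miR-17-92 cluster, was called higher, at 53.6 and 43.8 TPM in WT and 105 and 123 TPM in KO (difference 1.21 ± 0.26), and had an adjusted p of 0.0957 with the span trend removed. Hbb-b1, an adult beta globin gene, stood at 1.05 and 0 TPM in WT and 16.1 and 8.52 TPM in KO, with an adjusted p of 0.0589 when that trend was removed. Among abundant genes that fell, Adk, adenosine kinase, stood at 759 and 613 TPM in WT and 73.9 and 85.6 TPM in KO (difference -3.08 ± 0.22, adjusted p = 0.00172), and with the span trend removed its adjusted p was 0.0274. Arhgap15, a GTPase-activating protein for Rac, stood at 2336 and 1995 and 395 and 532 TPM (difference -2.23 ± 0.21), and with the span trend removed it was not called (adjusted p = 0.497).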
